A study of Homo sapiens with 12 samples.

Results

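Mirtrons are microRNAs (miRNAs) made from short introns. A classical mirtron is an intron that folds, once spliced and debranched, into a hairpin that DICER can cut, so that it needs no cut by DROSHA, the nuclease that frees most miRNA hairpins from their primary transcripts. DICER then cuts away the loop and leaves a duplex of a 5p arm, from the intron's 5′ end, and a 3p arm, from its 3′ end. Either arm can be loaded into an Argonaute protein, where its seed (bases 2 to 8) pairs with target mRNAs. The 10 names described here were chosen by their summed read count. Among the 17 names listed for miR-877, miR-1224 to miR-1229, miR-1236 and miR-1238, they had the highest totals over the 12 libraries. They come from 7 hairpins and are 10 of 1971 miRNA names listed in either cell line. Their totals ran from 87 reads for miR-1236-3p to 6286 for miR-877-5p, and the first name outside the choice, miR-1228-5p, had 76. Together they held 97.5% of the 10227 reads of the 17 names, and the miR-877 arms made up 78.1% of the members' 9968 reads. WT libraries of HCT116 gave 47.6% of those reads, so the choice favoured names high in that group. Levels that chose the members are given as a description only.

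The libraries were made by AQ-seq, a small RNA protocol built to reduce ligation bias, from HCT116 and HEK293T. The first is a line from a human colorectal carcinoma, the second from human embryonic kidney. Each line carried what the labels call a rescue with DICER WT, with DICER lacking its double-stranded RNA-binding domain (dsRBD deletion, labelled ΔdsRBD), or with a form labelled AA. The labels do not say what AA changes, how a line's own DICER was removed or whether a line is a single clone. The 6 groups were HCT116 with WT, deletion or AA and HEK293T with WT, deletion or AA, with 2 libraries each, and whether the 2 came from separate cultures is not stated. P-values therefore measure the spread between these libraries, which may be technical.

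All 10 members were found in RefSeq (GRCh38.p14), and all 7 hairpins begin and end exactly at the borders of an annotated GENCODE version 29 intron of a protein-coding host gene. MIR877 is intron 13 of ABCF1 at chr6:30584332-30584417 on the plus strand, in the transcript used for numbering. MIR1226 is intron 20 of DHX30 at chr3:47849555-47849629 (plus), MIR1224 intron 18 of VWA5B2 at chr3:184241405-184241489 (plus), and MIR1228 intron 49 of LRP1 at chr12:57194504-57194576 (plus). MIR1229 is intron 10 of MGAT4B at chr5:179798278-179798346 (minus), MIR1227 intron 4 of PLEKHJ1 at chr19:2234062-2234149 (minus), and MIR1236 intron 3 of NELFE at chr6:31956839-31956940 (minus). The hairpins of miR-877 and miR-1226 are shown first because their arms changed separately below. They are written 5′ to 3′ with the annotated arms in capitals, so that the GU and AG of the splice sites stand at the outer ends of the arms.
MIR877: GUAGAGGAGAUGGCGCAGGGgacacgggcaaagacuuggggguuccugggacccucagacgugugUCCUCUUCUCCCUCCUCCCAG
MIR1226: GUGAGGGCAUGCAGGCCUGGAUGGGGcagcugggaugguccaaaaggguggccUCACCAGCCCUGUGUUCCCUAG

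The mature sequences of the members on which the comparisons turn are printed 5′ to 3′ with the seed in capitals because the seed decides the targets of an arm.
hsa-miR-877-5p: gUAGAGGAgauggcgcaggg
hsa-miR-877-3p: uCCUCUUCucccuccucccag
hsa-miR-1226-5p: gUGAGGGCaugcaggccuggaugggg
hsa-miR-1226-3p: uCACCAGCccuguguucccuag
hsa-miR-1224-5p: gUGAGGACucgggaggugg
hsa-miR-1228-3p: uCACACCUgccucgcccccc
hsa-miR-1229-3p: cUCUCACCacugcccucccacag
hsa-miR-1236-3p: cCUCUUCCccuugucucuccag
The 10 members have 10 different seeds, so no seed group could be formed among them. All 3 of the 5p members start at the first base of the intron. Of the 7 3p members, 6 end at its last base, and miR-1228-3p ends 2 bases before it. Beginning with GU and ending with AG is uncommon among listed hairpins: 35 of 1519 (2.30%) do so, the members' hairpins included. The 3p members were rich in C and U (68.2% to 90.5% of bases, median 80.0%), as the polypyrimidine tract of a 3′ splice site is, against a median of 56.5% over 822 listed 3p arms. The 5p members had a median of 73.7% G or A, against 54.5% over 809 listed 5p arms.

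The libraries held 824987 to 4498886 miRNA reads, and a count of 0 allows a level of up to 0.667 to 3.64 CPM (reads relative to the library's total, in the usual scaling). The marker levels in this paragraph are also relative to the library's total. Mirtron levels below are CPM scaled with TMM factors within a line. Intervals and this limit cover counting error only. The 5 markers of colonic epithelium (miR-200c-3p, miR-141-3p, miR-192-5p, miR-194-5p and miR-215-5p) were listed in both lines, but their summed level was lower in HCT116 (470 to 582 CPM) than in HEK293T (1973 to 3369 CPM). miR-192-5p, miR-194-5p and miR-215-5p carried that difference, with miR-215-5p at 0.986 to 6.65 CPM in HCT116 and 254 to 1134 in HEK293T. miR-200c-3p was higher in HCT116 (38.9 to 73.2 CPM against 17.1 to 35.9), and miR-141-3p overlapped. Of 7 markers of other tissues, 6 were listed; their sum was 115 to 429 CPM in HCT116 and 74.6 to 395 CPM in HEK293T, with miR-206 the missing name. Most of the sum in HCT116 was miR-142-3p (90.9 to 419 CPM, against 4.72 to 13.5 in HEK293T), and in HEK293T miR-124-3p (53.8 to 384 CPM, against 0 to 0.95 in HCT116). The part of other cells in the results was not tested. Per spike-in read, the libraries held less miRNA with the deletion (63.7 and 64.7 in HCT116, 29.1 and 27.2 in HEK293T) than with WT (274 and 367; 82.6 and 80.9), with AA between (210 and 206; 58.8 and 44.3). Each such difference from WT had an exact permutation p of 0.333, the smallest that 2 libraries against 2 allow. TMM removes a shift shared by most names, so the tests below compare a mirtron with the other miRNAs and not with the spike-ins. In bulk RNA, fewer cells with a miRNA and less of it per cell cannot be told apart.

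The libraries of a group differed in their mirtrons. In HCT116, replicate 1 minus replicate 2 had a median of 0.63 (log2) over the 10 members with WT. Of the 10, 9 lay above 0 and 8 above 0.5. With the deletion the median was 0.71, again with 9 of 10 above 0. Some of these values rest on few reads in libraries of unequal TMM-scaled size (968773 and 1725040). There miR-1226-3p and miR-1228-3p each had 1 and 0 reads, miR-1229-3p 5 and 6, and miR-1236-3p 3 and 3 (a difference of 0.63). The miR-877 arms, with 492 and 604 (5p) and 122 and 151 reads (3p), differed by 0.54 and 0.52. Over all 795 names tested in HCT116 the medians were 0.01 and 0.02, and 14.6% and 17.4% lay above 0.5. Their 5th percentiles were −0.59 and −1.15, so other names differed by over 0.5 in the opposite direction. Names of the lists compared further below also differed with WT. Their medians were 0.38 (6 other reported mirtrons) and 0.31 (29 names from miR-6726 to miR-6895). For 5 names of the miR-320 family and miR-484 the median was 0.32. With the deletion these medians were, in order, 0.83, −0.26 and −0.29. In the AA libraries the members showed no such shift (median −0.02). In HEK293T, where 4 members could be tested, the medians were 0.26 (WT), −0.42 (deletion) and −0.15 (AA). miR-877-5p was thus 1.65 times as high in the first WT library of HCT116 as in the second, miR-1228-3p 2.20 times, while miR-1226-5p was at 0.947 of it. Most calls that were lost or gained when 1 library was left out are named with the comparisons, for arms tested in the full fit. Members tested only when a library was left out are not named there.

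**Figure D1:**
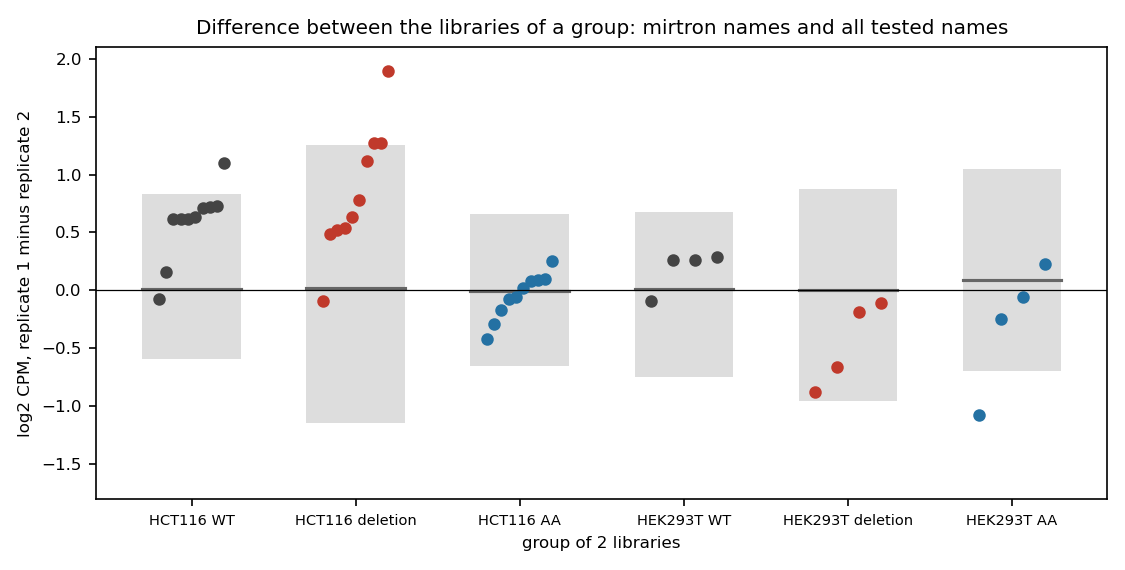
Difference between the 2 libraries of each group, as log2 CPM of replicate 1 minus replicate 2 (vertical axis) for the 6 groups (horizontal axis). Points are the members tested in that line, spread sideways by value only; the grey bar spans the 5th to the 95th percentile of all tested names and its line is their median. In HCT116, 9 of 10 members lie above 0 with WT and with the deletion, while the AA points lie around 0. With the deletion some points rest on few reads, such as 1 and 0 for miR-1226-3p and miR-1228-3p.

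miR-877, from ABCF1, a gene of a translation-linked ATP-binding protein, was the mirtron with the most reads. In HCT116, miR-877-5p was at 479 and 290 CPM with WT, 508 and 350 with the deletion, and 237 and 249 with AA. The WT and deletion libraries overlapped, and both AA libraries lay below them. Its 3p arm was at 93.1 and 60.5 CPM with WT, 126 and 87.5 with the deletion, and 66.5 and 62.2 with AA, again with WT and deletion overlapping. In HEK293T, miR-877-5p was at 76.9 and 64.0 CPM with WT, 68.0 and 73.5 with the deletion, and 37.1 and 31.5 with AA, so AA lay lowest there too. miR-877-3p was at 17.0 and 14.0 CPM with WT, 41.5 and 47.4 with the deletion, and 9.63 and 10 with AA. Both deletion libraries of HEK293T lay above every other HEK293T library for this arm, a separation that its 5p partner did not show.

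miR-1226, from the helicase gene DHX30, was read mostly from its 3p arm. In HCT116, miR-1226-3p had 174 and 94 reads with WT (43.8 and 28.3 CPM) and 44 and 67 with AA (14.5 and 19.7 CPM). With the deletion it had 1 read in the first library and 0 in the second, where a count of 0 allows up to 1.74 CPM. miR-1226-5p was at 8.56 and 9.03 CPM with WT, 10.3 and 11 with the deletion, and 5.92 and 5.58 with AA, so the 5p arm of the same hairpin was still read in both deletion libraries. In HEK293T, miR-1226-3p was at 15.9 and 12.9 CPM with WT, 7.06 and 13.8 with the deletion and 10.7 and 12.9 with AA, and the 3 groups overlapped. miR-1226-5p was there at 7.08 and 7.60 CPM with WT, 3.53 and 6.12 with the deletion, and 2.22 and 5.73 with AA.

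miR-1224, from VWA5B2, was read mainly from its 5p arm and mainly in HCT116. miR-1224-5p was at 64.9 and 38.8 CPM with WT, 13.4 and 5.80 with the deletion, and 15.8 and 16.4 with AA; no HCT116 library with an altered DICER reached the WT libraries. Its 3p arm was at 12.3 and 7.23 CPM with WT, 4.13 and 0.580 with the deletion, and 3.29 and 2.64 with AA. In HEK293T, miR-1224-5p had 1 and 2 reads with WT and 0 in the other 4 libraries, where a count of 0 allows up to 1.11 to 2.65 CPM. Its 3p arm had 0 or 1 read in each HEK293T library.

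The other hairpins were read mostly as 3p arms. miR-1229-3p, from MGAT4B, a glycosyltransferase gene, was at 44.8 and 28.9 CPM with WT in HCT116, 5.16 and 3.48 with the deletion, and 6.91 and 6.46 with AA. miR-1228-3p, from LRP1, an endocytic receptor gene, was at 29.2 and 13.2 CPM with WT, at 1 and 0 reads with the deletion (0 allows up to 1.74 CPM), and at 3.29 and 3.23 CPM with AA. For both, every library with WT lay above every library with another form. miR-1236-3p, from NELFE, a gene of the negative elongation factor, was the only member with both AA libraries above both WT libraries: 3.78 and 3.31 CPM with WT, 3.10 and 1.74 with the deletion, and 6.58 and 8.22 with AA. miR-1227-3p, from PLEKHJ1, was at 8.81 and 5.42 CPM with WT, 15.5 and 8.70 with the deletion, and 7.24 and 8.22 with AA, and the groups overlapped with WT. In HEK293T these 4 arms had 0 to 21 reads per library.

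**Figure D2:**
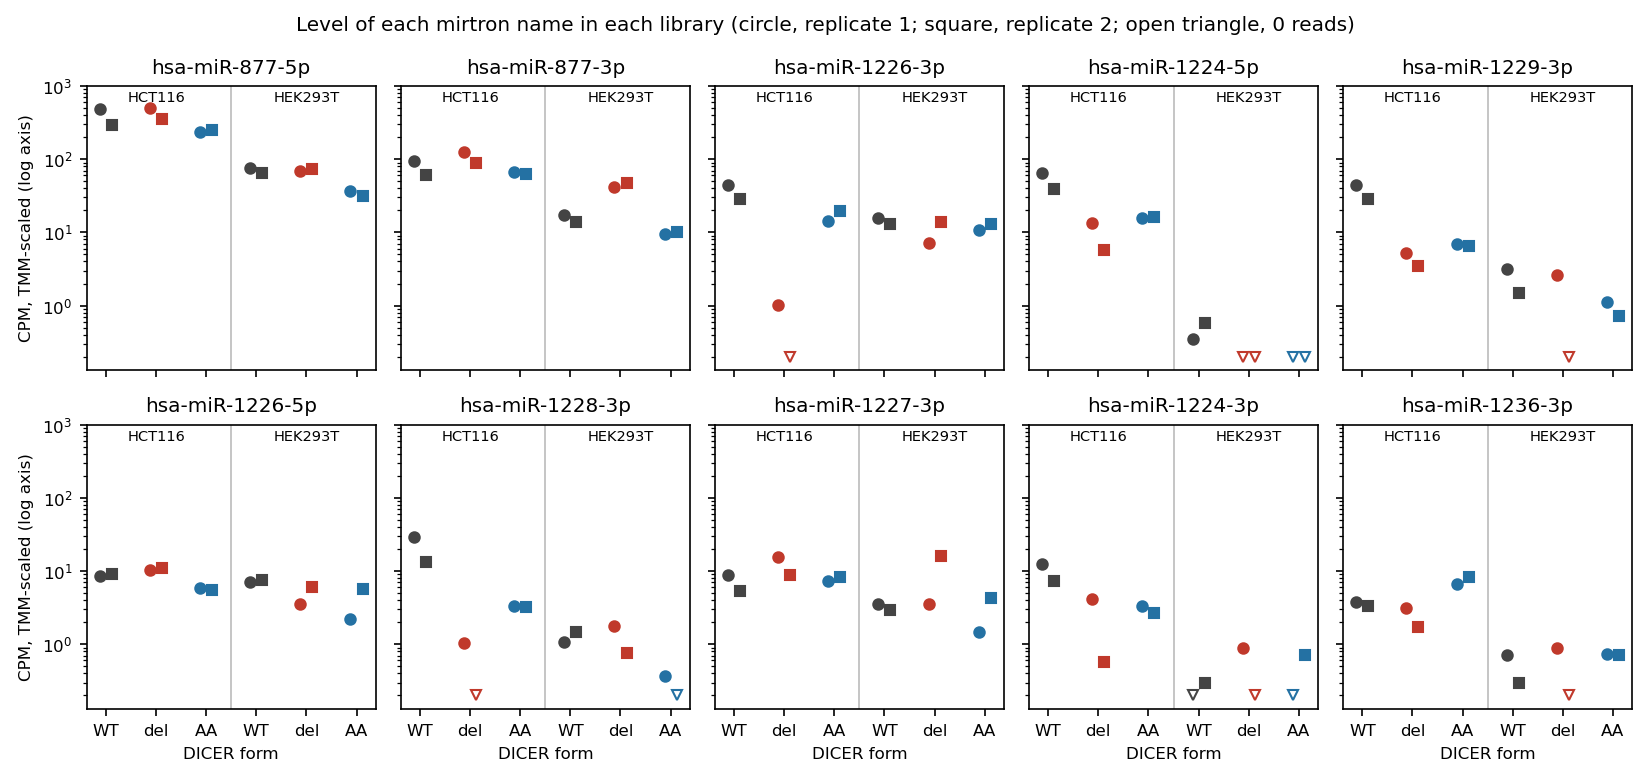
Level of each member in each library, in TMM-scaled CPM on a log axis, by DICER form (WT, dsRBD deletion as del, AA) with HCT116 on the left and HEK293T on the right of each panel. Circles are replicate 1, squares replicate 2, and open triangles libraries with 0 reads, drawn at a fixed height. miR-877-5p is the highest in every library, and miR-1226-3p and miR-1228-3p reach 1 and 0 reads in the deletion libraries of HCT116.

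The deletion was compared with WT to ask which miRNAs depend on the RNA-binding domain of DICER. In HCT116, 5 mirtron arms fell and none rose by edgeR's quasi-likelihood test (Benjamini-Hochberg adjusted p under 0.05 over 795 names): miR-1226-3p, miR-1228-3p, miR-1229-3p, miR-1224-5p and miR-1224-3p. The 5 arms not called, both of miR-877 and those of miR-1226-5p, miR-1227-3p and miR-1236-3p, include the 2 with the most reads. Over all names tested, 62.1% were called and 34.1% were called lower, so the members' 5 of 10 is a little above the share for falls and below the share for any call. Their median log2 change was −1.504, against −0.01 over all names. Names that passed the read filter only through the WT libraries had to differ. The choice by total reads also favoured names high with WT in HCT116, so the members' count and median are a description.

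miR-1226-3p had a log2 fold change of −6.44 ± 0.70 (SE, n = 2 libraries per group; edgeR adjusted p = 1.6e-05). Over pooled reads, 1 against 268, its level was 99.0-fold lower with an exact 95% counting interval of 17.6 to 3923. miR-1228-3p changed by −5.68 ± 0.90 (edgeR adjusted p = 2.7e-04); at 1 pooled read against 160 it was 59.1-fold lower, with an interval of 10.5 to 2348. Both had almost no reads with the deletion, so the sizes of these falls are only loosely fixed. miR-1229-3p fell by 3.16 ± 0.39 and miR-1224-5p by 2.58 ± 0.39 (log2; edgeR adjusted p = 4.1e-05 and 2.0e-04). miR-1224-3p changed by −2.36 ± 0.68 (edgeR adjusted p = 0.012), a call that was lost without the second deletion library (−1.35). Among arms that were not called, miR-877-5p had 0.15 ± 0.24 and miR-877-3p 0.45 ± 0.24 (edgeR adjusted p = 0.592 and 0.123), and miR-877-3p passed the test when the first WT library was left out (0.66). miR-1226-5p had 0.29 ± 0.33, miR-1227-3p 0.66 ± 0.42 and miR-1236-3p −0.65 ± 0.60.

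With spike-in scaling in place of TMM, the median of all names moved to −1.77 and 592 of 795 names were called lower. All 10 members were among them, with miR-877-5p at −1.60 and miR-1227-3p at −1.04, both above that median. With library totals alone the median moved to 0.52, miR-877-3p, miR-1226-5p and miR-1227-3p were called higher, and the call of miR-1224-3p was lost (−1.84, edgeR adjusted p = 0.055). The falls of miR-1226-3p, miR-1228-3p, miR-1229-3p and miR-1224-5p were called under each of these scalings.

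In HEK293T only the arms of miR-877 and miR-1226 had enough reads for the test. With the deletion, miR-877-3p rose by 1.52 ± 0.27 (log2, n = 2; edgeR adjusted p = 3.8e-04, over 626 names), to 2.88 times its WT level. Its partner miR-877-5p had a log2 fold change of 0.01 ± 0.23 (edgeR adjusted p = 0.985). The arms of miR-1226 were not called, at −0.43 ± 0.38 (3p) and −0.58 ± 0.50 (5p). The share called over all names was 75.6%, with 35.9% called higher, so 1 call among 4 members is below both. Without the first deletion library 5 members were tested and a further one was called higher, while the calls over all names fell in number. miR-877-3p ran from 1.25 to 1.63 when each library was left out in turn. In the full fit the members' median was −0.21, against −0.07 over all names. With spike-in scaling the median of all names moved to −1.46, and miR-877-3p stood at 0.14 (edgeR adjusted p = 0.720), above that median but not called. Both miR-1226 arms were then called lower (−1.82 and −1.95), as were 375 of 626 names.

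With AA in HCT116, fewer miRNAs changed: 7.42% of names were called, and 6.16% were called lower. Of the 10 members, 4 fell and none rose, a larger share than over all names. The choice by total reads favoured names high with WT in HCT116, so this count and the members' median below are a description. miR-1229-3p changed by −2.46 ± 0.29 (log2, n = 2; edgeR adjusted p = 8.1e-04), miR-1228-3p by −2.70 ± 0.46 and miR-1224-5p by −1.69 ± 0.29 (edgeR adjusted p = 0.0057 and 0.0058), and miR-1226-3p by −1.08 ± 0.28 (edgeR adjusted p = 0.0445). miR-1224-3p had a similar value to its 5p arm, −1.73 ± 0.49, and missed the threshold (edgeR adjusted p = 0.0586). The members' median was −0.87, against −0.03 over all names. The remaining arms were not called, with miR-877-5p at −0.66 ± 0.24 and miR-1236-3p at 1.05 ± 0.39 (edgeR adjusted p = 0.131 and 0.145).

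These AA results rest in part on single libraries. Without the first WT library, the higher of the pair for mirtrons, miR-1226-3p was at −0.73 and no longer called, and without the second WT library miR-877-5p (−0.99) and miR-1224-3p (−2.05) were called too. With no filter on low counts these 2 arms were called as well (−0.65 and −1.71). Without the first AA library most member calls were lost, among them those of miR-1224-5p and miR-1228-3p. The number of calls over all names fell as well. When each library was left out in turn, miR-1224-5p ran from −2.01 to −1.27 and miR-1228-3p from −3.15 to −2.01. The call of miR-1226-3p was also lost without the second AA library, by DESeq2 (−1.04, DESeq2 adjusted p = 0.099) and with library totals (−0.91). miR-1229-3p kept its direction without each library in turn, from −2.75 to −2.11. With spike-in scaling the median of all names moved to −0.59, and 8 of 10 members and 197 of 795 names were called lower.

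With AA in HEK293T, miR-877-5p fell by 1.02 ± 0.24 (log2, n = 2; edgeR adjusted p = 0.0115), to 0.492 of its WT level. It was the only call among the 4 members tested, against 21.4% over all names. miR-877-3p was at −0.66 ± 0.31, miR-1226-5p at −1.05 ± 0.48 and miR-1226-3p at −0.30 ± 0.34, none of them called, and the members' median was −0.84 against −0.11. The call of miR-877-5p was lost without the first WT library (−0.88) or without the second AA library (−0.86). With spike-in scaling, where the median of all names moved to −0.68, 3 of 4 members and 234 of 626 names were called lower.

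**Figure D3:**
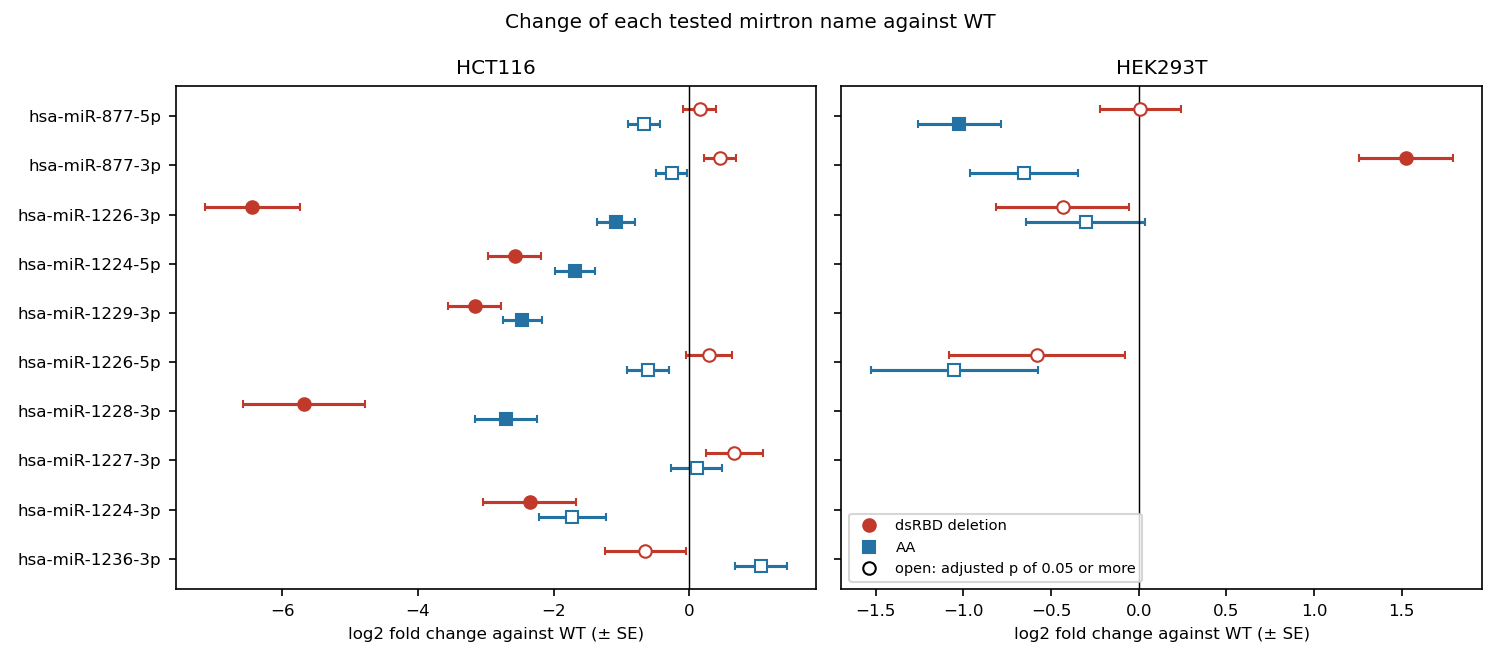
Log2 fold change against WT of each member that could be tested, with bars of ± 1 SE (n = 2 libraries per group), for the dsRBD deletion (circles) and AA (squares); filled symbols have an adjusted p under 0.05. The horizontal scales of the HCT116 panel (left) and the HEK293T panel (right) differ. In HCT116 the deletion lowered miR-1226-3p the most (−6.44), and in HEK293T the single filled circle is the rise of miR-877-3p (1.52). Both contrasts of a line share its WT libraries.

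AA was also set directly against the deletion, a contrast in which the WT levels do not enter. The WT libraries still took part in its filter, its scaling and its estimate of the spread. In HCT116, miR-1226-3p was higher with AA by 5.36 ± 0.81 (log2, n = 2; edgeR adjusted p = 2.4e-04) and miR-1236-3p by 1.70 ± 0.54 (edgeR adjusted p = 0.0212). miR-877-5p and miR-877-3p were lower with AA, at −0.81 ± 0.24 and −0.71 ± 0.24 (edgeR adjusted p = 0.0149 and 0.0288). These 4 calls of 10 compare with 56.5% over all names, and the median was 0.66 against −0.05. miR-1224-5p (0.88 ± 0.44), miR-1229-3p (0.70 ± 0.50) and miR-1228-3p (2.98 ± 1.29) did not pass the test between these forms, although each fell with both against WT. Both miR-877 calls were lost without the first deletion library (−0.39 and −0.31) or without either AA library, that of miR-877-3p also with no filter on low counts (−0.45), and that of miR-1236-3p was lost by DESeq2, with library totals, and without the second deletion or the second AA library. With spike-in scaling miR-877-5p and miR-877-3p turned to 0.42 and 0.51, where the median of all names was 1.15. Calls of higher levels with AA were gained by miR-1224-5p with spike-in scaling, with no filter and without the first deletion library, by miR-1228-3p with spike-in scaling and with no filter, and by miR-1229-3p and miR-1224-3p with spike-in scaling; miR-1226-5p was called lower with library totals.

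In HEK293T, both miR-877 arms were lower with AA than with the deletion: miR-877-3p by −2.18 ± 0.30 and miR-877-5p by −1.03 ± 0.25 (log2, n = 2; edgeR adjusted p = 7.5e-05 and 0.0034). These are 2 of 4 members tested, where 73% of all names were called and 36.9% were called lower. The members' median was −0.75 against −0.01 over all names. The miR-1226 arms were not called, at 0.13 ± 0.41 (3p) and −0.47 ± 0.60 (5p). The call of miR-877-5p was lost without the second deletion library (−0.76) and with spike-in scaling (−0.21), where the median of all names was 0.80. Without the first deletion library 5 members were tested and a further one was called lower.

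The arms of a hairpin come from the same cut, so their balance was tested on its own, as the change of 3p over 5p reads with the library as a block. In HCT116 with WT, the 3p arm of miR-1226 had 83.7% and 75.8% of the hairpin's reads (exact 95% intervals 77.9% to 88.4% and 67.3% to 83.0%). With the deletion it had 9.09% (1 of 11 reads, 0.230% to 41.3%) and 0% (0 of 19, up to 17.6%). The log2 change of 3p over 5p was −6.72 ± 0.89 (edgeR adjusted p = 7.3e-07). With AA the shares were 71.0% and 77.9%, and the change of −0.46 ± 0.46 was not called. In HEK293T the 3p share of miR-1226 was 69.2% and 62.9% with WT and 66.7% and 69.2% with the deletion, and the change of 0.15 ± 0.66 was not called. The SE is large, since the deletion libraries held 12 and 26 reads of the hairpin.

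For miR-877 the change of balance was called in HEK293T instead. Its 3p share there was 18.1% and 18.0% with WT (13.7% to 23.3% and 13.6% to 23.1%) and 37.9% and 39.2% with the deletion (29.3% to 47.1% and 31.6% to 47.3%), and the intervals did not meet. The log2 change of 3p over 5p was 1.51 ± 0.34 (edgeR adjusted p = 7.0e-04). In HCT116 the share was 16.3% and 17.3% with WT and 19.9% and 20% with the deletion (0.31 ± 0.25, edgeR adjusted p = 0.281). With AA it was 21.9% and 20% in HCT116 and 20.6% and 24.1% in HEK293T, and neither change was called. The difference between the lines in these changes of arm balance was not tested.

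The balance of the miR-1224 arms in HCT116 had a change of 0.22 ± 0.88 with the deletion (edgeR adjusted p = 0.842), on 17 and 11 reads per deletion library. The 3p arm of miR-1228 had a value of −2.90 ± 1.46 that was not called (edgeR adjusted p = 0.0889), with 3 reads and 1 read of both arms in the deletion libraries. Of all hairpins tested in HCT116, 62.4% were called with the deletion, 107 of 143 toward 5p, and miR-1226 was 1 of 4 member hairpins called. With AA in HCT116 13.5% were called and none of 4 member hairpins. In HEK293T 57.8% were called with the deletion and 10.6% with AA, against 1 of 2 and 0 of 2 member hairpins. Between the lines with WT 41.8% were called and none of 4 member hairpins, with miR-1226 nearest at −1.07 ± 0.45 (edgeR adjusted p = 0.0517); it was called without the second WT library of HCT116 (−1.40). Where no member hairpin was called, none had an unadjusted p under 0.05 except miR-1226 between the lines (0.0218).

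**Figure D4:**
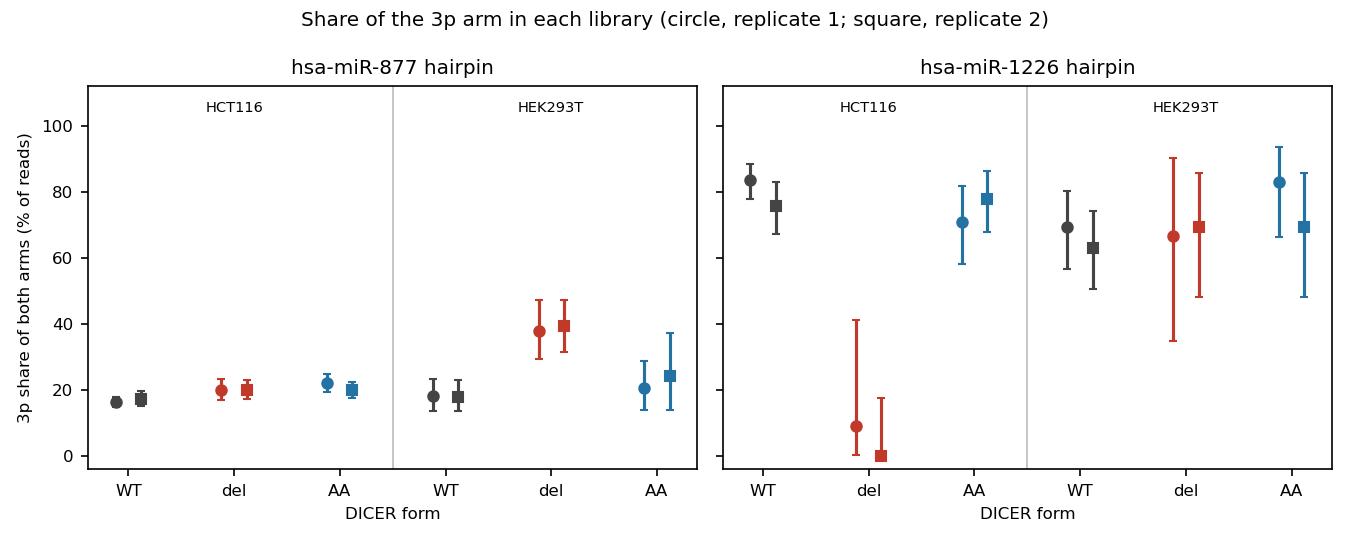
Share of the 3p arm among the reads of both arms (percent, vertical axis) for the miR-877 and miR-1226 hairpins in each library, by DICER form and cell line; circles are replicate 1, squares replicate 2, and bars exact 95% binomial intervals of counting error. The miR-1226 share is 9.09% and 0% in the deletion libraries of HCT116, and the miR-877 share is 37.9% and 39.2% in those of HEK293T.

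Between the lines with WT DICER, 9 of the 10 members were lower in HEK293T, where 73.2% of 844 names were called and 41.2% were called lower. The members' median log2 difference was −2.66 against −0.39 over all names. miR-877-5p differed by −2.51 ± 0.24 (log2, HEK293T minus HCT116, n = 2; edgeR adjusted p = 2.9e-09) and miR-877-3p by −2.37 ± 0.27. miR-1224-5p had the largest difference of a member, −6.66 ± 0.54; at 3 pooled reads against 387 it was 114-fold lower, with an exact 95% counting interval of 38.8 to 557. miR-1226-3p differed by −1.39 ± 0.31, while its 5p arm, at −0.30 ± 0.37, was not called. Members outside the miR-877, miR-1226 and miR-1227 hairpins passed the filter through their HCT116 libraries. The choice by total reads also favoured HCT116, so the count of 9 is a description. That count was 8 with library totals and by DESeq2, and 10 with spike-in scaling. miR-1227-3p (−1.20 ± 0.53, edgeR adjusted p = 0.046) lost its call in the first 2 of these settings. It also lost it without the first HCT116 WT library or either HEK293T WT library.

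The difference of the deletion effect between the lines was called for 3 of the 10 members, each higher in HEK293T relative to HCT116; 34.8% of names were called and 22.4% in that direction. Of the 3, miR-1226-3p and miR-877-3p could be tested in each line on its own. For miR-1226-3p the difference of effects was 6.29 ± 0.93 (log2, HEK293T minus HCT116; edgeR adjusted p = 1.2e-05). For miR-877-3p it was 1.38 ± 0.38 (edgeR adjusted p = 0.0066), lost with library totals (0.67) and without the first WT library of HCT116 (0.98). miR-1228-3p had 5.90 ± 1.81 (edgeR adjusted p = 0.0138), but it passed the filter through HCT116 alone. In HEK293T it had 3 and 5 reads with WT and 2 and 1 with the deletion, too few for a test there (pooled ratio 0.960, exact 95% counting interval 0.164 to 3.999), so its value is a description. Its call was lost without the first deletion library of HEK293T (5.33), while miR-1227-3p was called without that library (2.04) and miR-1229-3p without the second (3.77). The members' median difference was 1.33, against 0.34 over all names. The choice by total reads favoured names high with WT in HCT116, so this median and the count of 3 are a description. For AA no member's effect differed between the lines by edgeR or by DESeq2, none had an unadjusted edgeR p under 0.05, and 3.91% of names were called; miR-1226-3p was nearest (0.90 ± 0.48, edgeR adjusted p = 0.407).

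Names just outside the choice did not all follow the members. miR-1228-5p, the partner of miR-1228-3p, was at 10.3 and 5.42 CPM with WT in HCT116, 2.06 and 0.580 with the deletion and 1.32 and 0.880 with AA, and it was called lower with both (−2.78 and −2.82). miR-1225-3p, from an intron of PKD1, was at 4.28 and 3.61 CPM with WT and 13.4 and 8.12 with the deletion, and it was called higher with the deletion (1.36 ± 0.45, edgeR adjusted p = 0.022), as was miR-1225-5p (1.64 ± 0.63). Of the 14 names in the list of other reported mirtrons, which holds these, 6 were tested in HCT116; 2 rose and 2 fell with the deletion (median 0.38), where 28.1% of all names were called higher, and 1 fell with AA. The list of names from miR-6726 to miR-6895, many of which are annotated in short introns, had 29 of 298 tested in HCT116. Of these, 5 rose and 8 fell with the deletion (median 0.02), where 28.1% of all names were called higher and 34.1% lower. In HEK293T 6 were tested, and 5 rose with the deletion (median 1.48), where 35.9% of all names were called higher. The miR-320 family and miR-484, which avoid DROSHA without splicing, had 5 of 6 names tested; all 5 fell with the deletion in each line (medians −1.29 and −1.21), while with AA 1 fell in HCT116 and all 5 in HEK293T. Of all names in HCT116, 34.1% were called lower with the deletion and 6.16% with AA. In HEK293T these shares were 39.6% and 15.2%.

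The names of other hairpins whose log2 level was most like that of miR-877-5p over the 12 libraries were let-7g-5p (Pearson r = 0.973), let-7a-3p (0.967), miR-23a-5p (0.966), miR-135b-5p (0.964) and miR-330-5p (0.964). The 12 libraries come from 2 lines with different levels of miR-877-5p, so the points are not independent and the values are given as a description. Among the members, miR-877-3p (0.915) and miR-1224-5p (0.911) were most like it, and miR-1226-3p was the only one with a negative value (−0.196).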

How the data were processed

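Small RNA reads were deposited as raw counts by the authors, one table per library with a count per miRNA name and per spike-in RNA. Per the submitters' processing notes, cutadapt, BWA and bedtools and the builds hg38 and mm10 were used; their versions, the miRNA annotation and how reads matching several names were treated are not given in these sources. Total RNA was isolated with TRIzol and sequenced on a NovaSeq, per the labels' protocols.

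Members, lists and tests were chosen with earlier results of these data known. Spike-ins were left out. Per line, names passing filterByExpr (minimum count 10) were tested over 6 libraries with edgeR 4.0.16 in R 4.3.3 (quasi-likelihood F test on group means, TMM, Benjamini-Hochberg at 0.05, two-sided), which leaves 3 residual degrees of freedom; contrasts between the lines took the 12 libraries together and the 1494 names shared by their tables. The SE is the size of a log2 change divided by the square root of F. P-values were adjusted within each of 9 level and 5 arm comparisons. Arm use was the interaction of arm and group with a library block; a hairpin needed 10 or more reads of each arm in 2 or more libraries. Likeness used log2 CPM with a prior count of 2. The named miRNAs were the members, with names outside only where compared. The fits were tested on simulated data. Alternatives were DESeq2 1.42.0 size factors, library totals, spike-in scaling, no filter, DESeq2, a replicate block and leaving out each library. Counting limits come from each library's depth. Figures used matplotlib 3.10.9.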

Additional observations from a re-analysis of the deposited data

Results flagged for a closer look

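A test of the difference between the lines in the effect of the dsRBD deletion (edgeR contrast over 12 libraries) called 3 of 10 mirtron arms. Over all names tested, 34.8% were called and 22.4% were called higher in HEK293T relative to HCT116, so 3 of 10 lies between these shares. The log2 difference, HEK293T minus HCT116, was 6.29 for miR-1226-3p (edgeR adjusted p = 1.2e-05), 5.90 for miR-1228-3p (0.0138) and 1.38 for miR-877-3p (0.0066). miR-1226-3p was nearly absent from the deletion libraries of HCT116 (1 and 0 reads) and at 8 and 18 reads in those of HEK293T. miR-1228-3p had at most 5 reads in any HEK293T library and passed the filter through HCT116 alone, so its difference is a description. miR-877-3p rose in HEK293T, where its 5p arm was at 70.4 ± 9.09 CPM with WT and 70.7 ± 3.89 with the deletion (mean ± SD, n = 2). Groups of 2 libraries are too small for a test of single outlying libraries.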

How the results depend on the processing

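Of 870 recomputed values of single arms and hairpins, 760 kept their direction and their side of the threshold, and 47 changed sign. Among values that kept their sign, 34 lost and 29 gained a call. Calls that changed along with the sign are counted only among the 47. The cause was not tested. The depth and the 2 libraries per group limit every value, most of all arms under 10 reads in HEK293T, where 6 members had no test.

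With spike-in scaling the members called were 10 (HCT116 deletion), 8 (HCT116 AA), 3 (HEK293T deletion), 3 (HEK293T AA) and 1 (HEK293T AA against deletion). In the same order, the calls over all names were 599 of 795, 198 of 795, 442 of 626, 241 of 626 and 422 of 626. Signs that turned with it in HCT116 were those of miR-877-5p (−1.60), miR-877-3p (−1.29), miR-1226-5p (−1.46) and miR-1227-3p (−1.04) with the deletion, of miR-1227-3p (−0.41) with AA, and of miR-877-5p (0.42), miR-877-3p (0.51), miR-1226-5p (0.30) and miR-1227-3p (0.64) in AA against deletion. In HEK293T they were miR-877-5p with the deletion (−1.37) and miR-1226-5p in AA against deletion (0.35), and between the lines the deletion effect on miR-1224-5p (0.99, and 0.87 by DESeq2). With no filter on low counts miR-877-5p had −0.10 (HCT116 deletion) and −0.31 (HEK293T deletion). The line difference of the deletion effect on miR-877-5p was −0.13 with DESeq2 size factors, −0.53 with library totals, −0.18 with no filter and −0.13 by DESeq2. With library totals miR-1226-3p had −0.042 in HEK293T AA against deletion, and 78 names were called for the line difference of the AA effect.

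Leaving out each library in turn gave 10 to 73 names and 1 to 6 members called with AA in HCT116, 54 to 136 names and 0 to 1 member with AA in HEK293T, 1 to 3 members for AA against deletion in each line, 1 to 2 members with the deletion in HEK293T, and 0 to 1 hairpin between the lines. Log2 values that crossed 0 in HCT116 ran from −0.28 to 0.42 (miR-877-5p, deletion), −0.54 to 0.082 (miR-877-3p, AA), −0.19 to 0.51 (miR-1227-3p, AA) and −0.39 to 2.40 (miR-1224-3p, AA against deletion). In HEK293T they ran from −0.26 to 0.11 (miR-877-5p, deletion), −0.14 to 0.93 (miR-1226-3p) and −0.99 to 0.24 (miR-1226-5p, both AA against deletion). For the line difference of the deletion effect they ran from −0.29 to 0.53 (miR-877-5p), −2.17 to 3.77 (miR-1229-3p), −2.57 to 1.83 (miR-1236-3p) and −0.15 to 2.04 (miR-1227-3p), and for that of AA from −1.94 to 1.19 (miR-1228-3p), −0.80 to 0.22 (miR-1236-3p), −0.92 to 0.36 (miR-1226-5p), −1.02 to 0.42 (miR-1227-3p) and −0.32 to 4.30 (miR-1224-3p). Arm balance crossed 0 for miR-1224 (−0.82 to 0.71 with the deletion and −0.21 to 0.16 with AA in HCT116, −0.43 to 1.52 between the lines) and for miR-1228 (−0.12 to 0.41 with AA in HCT116, −1.11 to 0.027 between the lines). A minimum of 5 reads per arm changed no call of arm balance. A group left with a lone library was assumed to vary like the others. The counts of calls with a library left out are therefore a description. In this paragraph, those for AA against deletion, for the deletion in HEK293T and for hairpins between the lines cover members only. They cannot be read as a share above or below that of all names.

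Replicate numbers did not pair the libraries: differences between replicates correlated across names at 0.147, −0.104 and −0.0487 in HCT116 and at −0.0258, −0.0675 and 0.0930 in HEK293T. With the replicate block 478 names and 5 members were called in HCT116 with the deletion and 46 names and 3 members with AA, where miR-1226-3p (−1.05) lost its call; the block changed no other member's call.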
